A study of Homo sapiens with 2 samples.

Results

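The calnexin cycle lectins and glucosidases are 9 genes, CALR, CANX, CLGN, UGGT1, UGGT2, MOGS, GANAB, PRKCSH and MLEC, chosen by name from the 21115 genes measured. All 9 symbols were found, each in 1 row. Expression was measured by sequencing polyadenylated RNA from HCT116 cells, an established line of human colorectal carcinoma epithelium. One culture condition was 8 h with 1 µM CB-5083, which inhibits p97, the ATPase encoded by VCP. The other was 8 h with the solvent DMSO. Both conditions are single libraries. Differences between them therefore have no replicate check and no test, and the intervals given cover counting error only.

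Proteins made in the endoplasmic reticulum (ER) receive a glucose-capped N-linked glycan. Glucosidase I and then glucosidase II trim the glucoses, and the lectins calnexin and calreticulin hold glycoproteins that carry the last one while they fold. UGGT enzymes put a glucose back on glycoproteins that are not yet folded, which returns them to the lectins, and glycoproteins that stay misfolded are taken out of the ER with the help of p97 and degraded.

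The CB-5083 library held 31997688 estimated counts and the DMSO library 29273713. Levels are CPM, a gene's count relative to the size of its library, after TMM scaling, which sets the bulk of the genes equal between libraries. The log2 ratio of a gene is that of its CB-5083 level over its DMSO level, with 1 CPM added to each. Genes were called higher or lower at a log2 ratio of at least 1 in size, if either library held 5 CPM or more. Of 9543 genes that reached 5 CPM, 689 were higher and 469 lower, with a median log2 ratio of 0.09. Under library totals in place of TMM, log2 ratios shifted by -0.34, and 371 genes (3.86%) were higher and 994 (10.3%) lower. With the log2 ratio of the authors' deposited table, 636 (6.67%) were higher and 722 (7.57%) lower. The epithelial genes EPCAM (501 with CB-5083 and 433 with DMSO, in CPM), KRT8 (361 and 278) and KRT18 (495 and 292) were well expressed, and of 7 epithelial markers CDX2 alone stayed under 5 CPM (2.92 and 3.76). Of these markers CDH1 (243 and 66.7) and CLDN4 (10.1 and 4.42) were called higher with CB-5083, CLDN4 not with library totals. CLDN4 reached 5 CPM in the CB-5083 library only, so its call is no support. The 7 markers of other cell types summed to 5.57 CPM with CB-5083 and 4.13 CPM with DMSO, and PTPRC, CD3E and COL1A2 were at 0 in both libraries. COL1A1 (3.48 with CB-5083 and 2.52 with DMSO, in CPM) and CD68 (2.01 and 1.30) were the highest of the 7.

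CALR and CANX, the lectins that bind the monoglucosylated glycan, were the 2 members called higher with CB-5083. None of the 9 was called lower, and 7 were neither. Over all genes tested, 7.22% were called higher and 4.91% lower. At 1.5-fold UGGT1 and CLGN were higher too, 4 of the 9 beside 17.4% of all tested genes, but CLGN reached 5 CPM in the CB-5083 library only, so its place in that count is no support. The median log2 ratio of the 9 members was 0.48, and 8 of the 9 ratios were above 0, PRKCSH being the exception, beside 57.4% of all tested genes. With library totals the median was 0.14 and 6 of the 9 were above 0, UGGT2 and MOGS having turned negative, beside 30.9% of all tested genes. CLGN is part of these medians and of both counts above 0, where its place is again no support. Summed over the 9 genes, expression was 5236 CPM with CB-5083 and 2522 CPM with DMSO, of which CALR and CANX together made up 79.0% with CB-5083 and 69.3% with DMSO. In bulk RNA, a change in the number of cells that express a gene and a change in RNA per cell cannot be told apart.

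**Figure D1:**
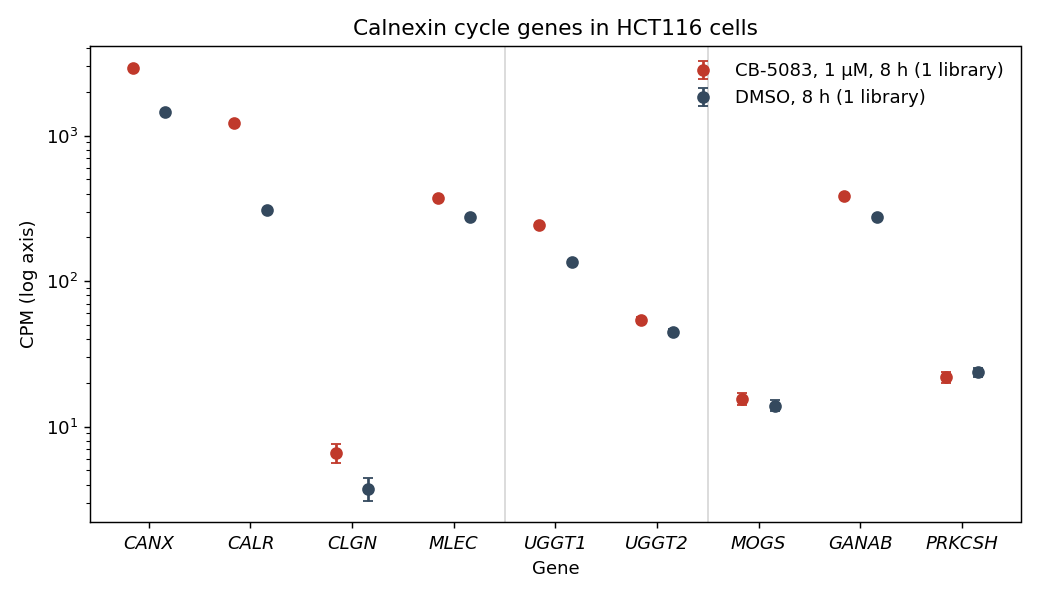
Level of each calnexin cycle gene in CPM (log axis) in the CB-5083 library (red, left of each pair) and the DMSO library (dark, right), 1 library each. Bars are 95% exact Poisson intervals for counting error, hidden by the point for most genes. Grey lines part lectins, UGGT enzymes and glucosidases, and CALR shows the widest gap, at 1223 CPM with CB-5083 and 307 CPM with DMSO.

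CALR, the soluble lectin of the ER lumen, lies on chromosome 19 from 13049414 to 13055304 (hg19). It had 1223 CPM with CB-5083 against 307 CPM with DMSO, from 34748 and 10106 estimated counts. CALR was therefore 3.99-fold higher with CB-5083 (95% counting interval 3.90 to 4.08), and 116 of the 9543 tested genes had a higher ratio. CALR took 0.109% of all estimated counts with CB-5083 and 0.0345% with DMSO. Its call held under each other scaling and pseudocount, with log2 ratios from 1.65 with library totals to 2.004 with median-of-ratios scaling.

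CANX, the membrane-bound relative of CALR, lies on chromosome 5 from 179125428 to 179158639 (hg19). It had 2914 CPM with CB-5083 against 1442 CPM with DMSO, from 82819 and 47530 estimated counts, which made it the most abundant member in both libraries. CANX was 2.02-fold higher with CB-5083 (1.998 to 2.04), a value at the threshold itself. Its log2 ratio of 1.01 became 0.91 with upper quartile scaling and 0.67 with library totals, and it was 0.92 in the authors' deposited table, so that under these 3 settings CANX was not called. Of the tested genes, 669 had a higher ratio.

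Stretches upstream of the CALR start site and of some CANX start sites shared a sequence feature, which was searched for after the values were seen. Whether the feature has a part in the levels of CALR and CANX was not tested. The stretch upstream of CALR is shown because it holds the feature in full context, on chr19:12938359-12938577 of GRCh38.p14, plus strand, from base -250 to base -32 before the RefSeq start site. Capitals mark a match to the ER stress response element (ERSE, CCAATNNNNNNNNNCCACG), an element known from promoters of human ER chaperone genes, which here reads on the opposite strand.
CALR: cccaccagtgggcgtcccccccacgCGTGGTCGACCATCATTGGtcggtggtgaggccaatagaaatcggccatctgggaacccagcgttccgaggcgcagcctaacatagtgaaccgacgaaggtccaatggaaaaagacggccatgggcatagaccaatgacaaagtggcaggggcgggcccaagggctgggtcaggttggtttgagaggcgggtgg

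For CANX, 30 bases around the match are shown, on chr5:179698773-179698802 of GRCh38.p14, plus strand. The match runs from base -151 to base -133 before one RefSeq start site and from base -189 to base -171 before another, on the strand of the gene, in a region where other CANX transcripts already start.
CANX: cccggCCAATCTTCACACTCCACGaagaat

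To compare the matches, each is given below from its CCAAT end, with the 10 bases that the element fixes in capitals and the 9 that it leaves free in lower case.
CALR element: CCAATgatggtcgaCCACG
CANX element: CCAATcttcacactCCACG

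Only the 250 bases before each start site were searched, on both strands, in the RefSeq promoter table. Of 35116 such windows over all genes, 26 held an ERSE, which is 0.074%. The table held 8 of the 9 members, with 14 windows. Of these, 3 windows matched, all of them of CALR or CANX, and CANX also had windows without a match. MOGS was not among the 8. Related elements, searched in the same way, were ERSE-II (ATTGGNCCACG, in 0.0513% of windows), UPRE (TGACGTGG, 0.612%) and the amino acid response element (AARE, TTGCATCA, 0.772%), and no member's window held one. ERSE and ERSE-II share the CCACG letters. No match says only that these letters are not in these windows.

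Of the 25 genes with an ERSE in a window, 19 were among the genes measured here, and 11 of these reached 5 CPM in a library. Besides CALR and CANX, 7 of the other 9 were called higher with CB-5083, none was lower, and EIF2A and ZNF17 were neither. One of the 7, CRELD2, had 32.4 CPM with CB-5083 and 4.61 CPM with DMSO. It reached 5 CPM in the CB-5083 library only, so its place in that count is no support. Of the 6876 tested genes with a window in the table, 7.13% were called higher. The median log2 ratio was 1.62 for the 9 other ERSE genes and 0.11 for the 6876. CRELD2 is part of the first median too, and is no support there either. CALR had the fourth highest ratio of the 11 and CANX was the lowest of those called. These calls are on TMM scaling. Library totals shift log2 ratios by about -0.34, and CANX, at 0.67 on that scale, was then not called. TRIM5, at 1.27 on TMM scaling, also fell short of the threshold with that shift. HSPA5, the main ER chaperone, had the highest ratio, at 21303 CPM with CB-5083 and 1282 CPM with DMSO. ERSE is known from promoters of ER chaperone genes, of which HSPA5 is one. The counts and medians of ERSE genes are therefore no independent support for the element.

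**Figure D2:**
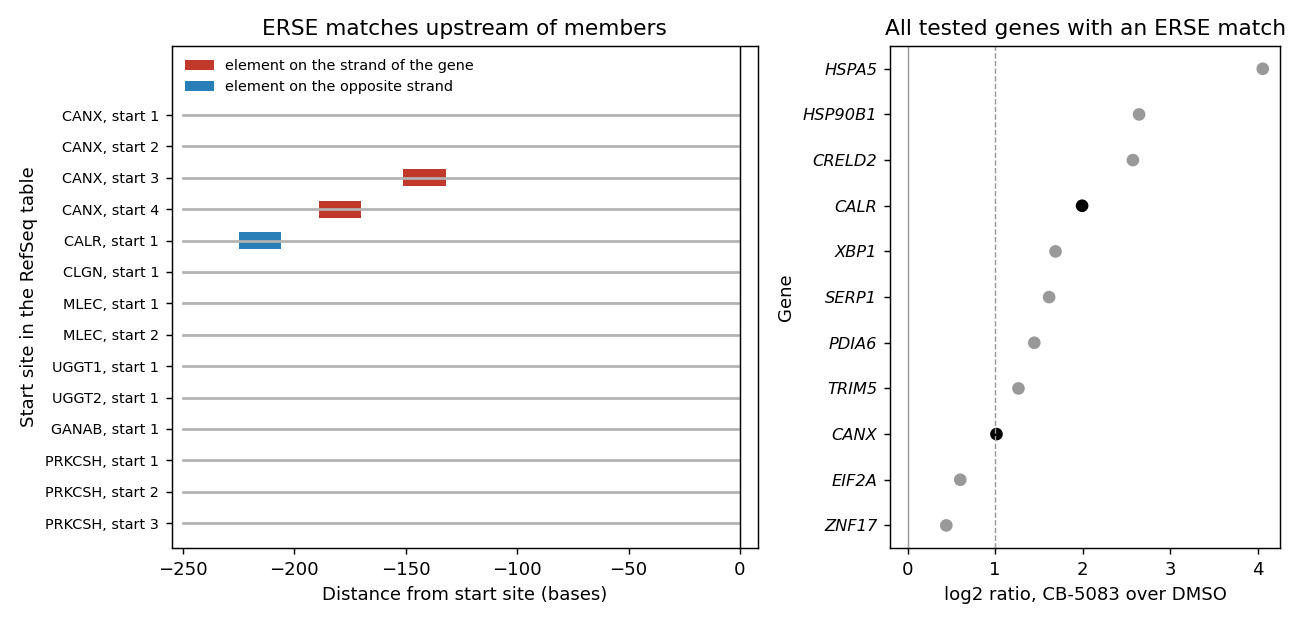
Left, position of ERSE matches in the 250 bases before each RefSeq start site of the members (x axis, distance from the start site in bases). Right, log2 ratio of CB-5083 over DMSO for the 11 tested genes with a match, members in black, with the 2-fold threshold dashed. On TMM scaling, 9 of the 11 lie at or above it, CRELD2 having reached 5 CPM in the CB-5083 library only. With library totals CANX stood at 0.67, and TRIM5 also fell below the threshold.

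MLEC, malectin, is an ER lectin that binds glycans still carrying an inner pair of glucoses. It lies on chromosome 12 from 121124949 to 121139667 (hg19). It had 371 CPM with CB-5083 against 274 CPM with DMSO, from 10541 and 9037 estimated counts, a log2 ratio of 0.43 (1.35-fold, 1.31 to 1.39). CLGN, calmegin, is a relative of calnexin known mainly from male germ cells, on chromosome 4 from 141309607 to 141348815 (hg19). It had 6.54 CPM with CB-5083 against 3.73 CPM with DMSO, from 186 and 123 estimated counts, so that only the CB-5083 library brought it past 5 CPM. Its fold of 1.75 had a wide counting interval, from 1.39 to 2.22, which holds the 2-fold threshold. Neither lectin was called, although both were higher with CB-5083 beyond counting error on this scaling.

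UGGT1, the folding sensor that re-glucosylates incompletely folded glycoproteins, lies on chromosome 2 from 128848754 to 128953249 (hg19). It had 244 CPM with CB-5083 against 136 CPM with DMSO, from 6935 and 4479 estimated counts. The log2 ratio of 0.84 (1.80-fold, 1.73 to 1.86) was the largest among the 7 members that were not called, with 943 tested genes above it. UGGT2, its paralog on chromosome 13 from 96453836 to 96705736 (hg19), had 54.1 CPM with CB-5083 against 44.7 CPM with DMSO, from 1539 and 1472 estimated counts. Its log2 ratio was 0.27 (1.21-fold, 1.13 to 1.30), and with library totals it was -0.06. The counting intervals of the UGGT1 and UGGT2 folds did not overlap.

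MOGS encodes glucosidase I, which removes the outermost glucose, and lies on chromosome 2 from 74688184 to 74692537 (hg19). It had 15.5 CPM with CB-5083 against 13.96 CPM with DMSO, from 440.0 and 460.2 estimated counts, and its interval of 0.971-fold to 1.27-fold included 1. With library totals its log2 ratio of 0.14 turned to -0.18.

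GANAB, the catalytic alpha subunit of glucosidase II, lies on chromosome 11 from 62392298 to 62414104 (hg19). It had 387 CPM with CB-5083 against 277 CPM with DMSO, from 10986 and 9130.0 estimated counts, a log2 ratio of 0.48 (1.40-fold, 1.36 to 1.43). PRKCSH, the beta subunit that keeps GANAB in the ER, lies on chromosome 19 from 11546269 to 11561782 (hg19). It had 21.8 CPM with CB-5083 against 23.6 CPM with DMSO, from 619 and 778 estimated counts. The log2 ratio of PRKCSH was -0.11 (0.923-fold), the lowest of the 9, with a counting interval of 0.829 to 1.03. The intervals of the 2 subunits of glucosidase II did not overlap.

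**Figure D3:**
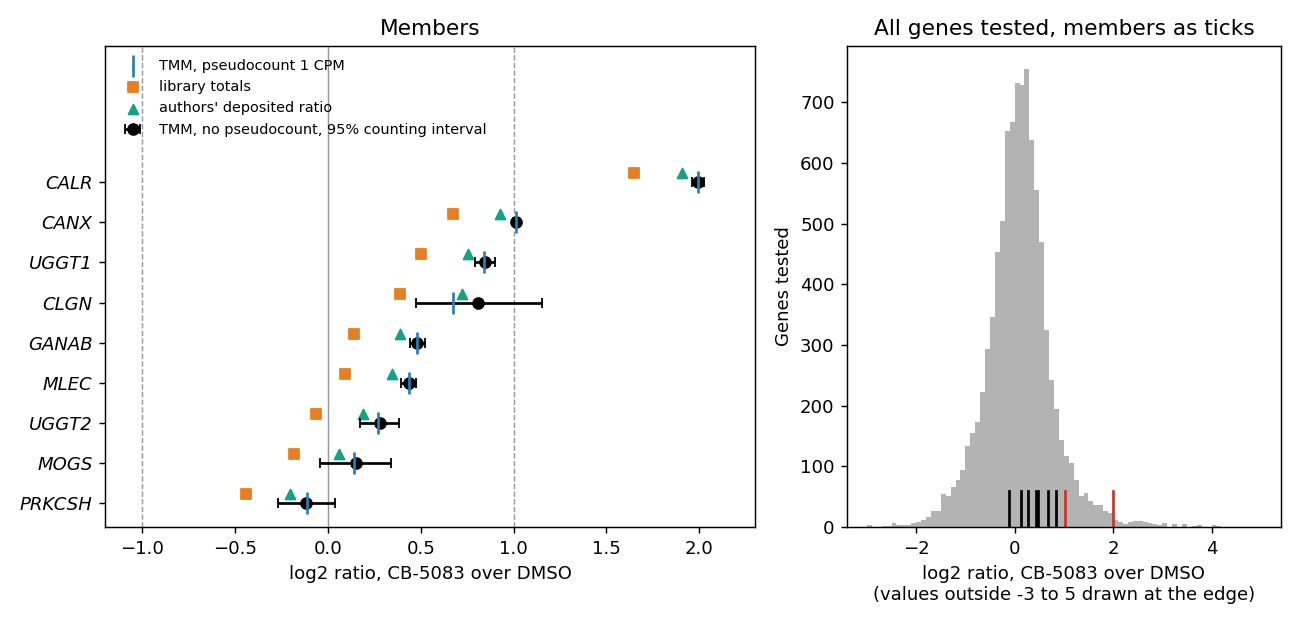
Left, log2 ratio of CB-5083 over DMSO for each member. Black points show TMM-scaled folds with 95% counting intervals, blue ticks the same with a pseudocount of 1 CPM, orange squares library totals and green triangles the authors' deposited ratio, with dashed lines at 2-fold. Of the scales drawn, CALR lies past the line on all and CANX reaches it on TMM only. Right, histogram of the 9543 tested genes with the 9 members as ticks, the 2 called in red.

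Per kilobase of the longest annotated transcript, the order of the members with CB-5083 ran from CANX (684 CPM per kilobase) and CALR (642) through GANAB (98.96), MLEC (55.97), UGGT1 (22.9), UGGT2 (11.2), PRKCSH (9.86) and MOGS (5.35) down to CLGN (2.15). With DMSO it ran from CANX (339 CPM per kilobase) and CALR (161) through GANAB (70.9), MLEC (41.4), UGGT1 (12.8), PRKCSH (10.7), UGGT2 (9.24) and MOGS (4.82) to CLGN (1.23). UGGT2 and PRKCSH thus stood in opposite order in the 2 libraries, and with CB-5083 their counting intervals overlapped. This rests on the length used, since with median transcript lengths UGGT2 ranked 6 and PRKCSH 7 in both libraries.

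Within each library, levels of functional pairs were then set against each other per kilobase. CANX stood at 1.06 times CALR with CB-5083 (1.05 to 1.08) and at 2.10 times CALR with DMSO (2.06 to 2.15), a near parity with CB-5083 that holds for this length only. UGGT1 stood at 2.04 times UGGT2 with CB-5083 (1.93 to 2.16) and at 1.38 times with DMSO (1.30 to 1.47). For glucosidase II, GANAB stood at 10.04 times PRKCSH with CB-5083 (9.26 to 10.9) and at 6.64 times with DMSO (6.17 to 7.15). GANAB stood at 18.5 times MOGS with CB-5083 (16.8 to 20.4) and at 14.7 times with DMSO (13.4 to 16.2), and these intervals did not overlap either. The ratios do not depend on scaling between libraries. Their size depends on the transcript length used, and with median transcript lengths CANX stood at 3.18 times CALR with CB-5083 and at 6.28 times with DMSO. On those lengths UGGT1 over UGGT2 was 4.87 with CB-5083 and 3.29 with DMSO, GANAB over PRKCSH 15.03 with CB-5083 and 9.94 with DMSO, and GANAB over MOGS 85.9 with CB-5083 and 68.3 with DMSO.

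**Figure D4:**
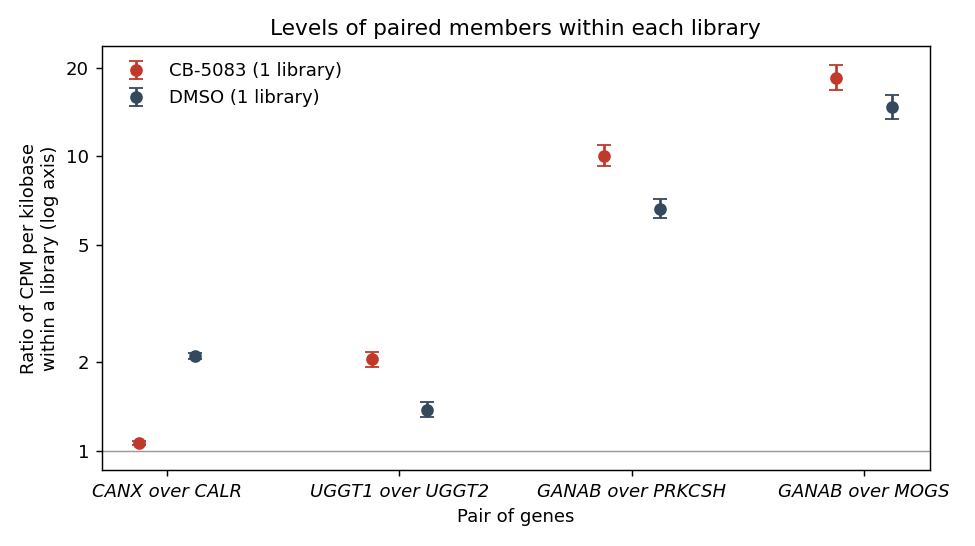
Ratio of CPM per kilobase between paired members within a library (log axis), CB-5083 in red on the left and DMSO in dark on the right, with 95% counting intervals. CANX over CALR was lower with CB-5083 (1.06) than with DMSO (2.10), while GANAB over PRKCSH was higher (10.04 with CB-5083 and 6.64 with DMSO).

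Genes that work around the calnexin cycle were followed in 6 lists with 73 genes in all, of which 64 reached 5 CPM. Of these 64, 13 were called higher and 1 lower with CB-5083, and 50 were neither, beside the 7.22% higher and 4.91% lower over all tested genes. By library totals 6 were higher and 4 lower, beside 3.86% and 10.3% of all tested genes. Among 5 partners of the cycle 4 were tested, with 2 higher, the other 2 not called, and a median log2 ratio of 0.92. PDIA3, the disulfide isomerase ERp57 that docks on calnexin and calreticulin, had 2363 CPM with CB-5083 against 764 CPM with DMSO (3.09-fold, 3.05 to 3.14). PPIB, the ER prolyl isomerase cyclophilin B, had 342 CPM with CB-5083 against 142 CPM with DMSO (2.41-fold, 2.33 to 2.50), and its log2 ratio of 1.26 was 0.92 with library totals. SELENOF, a selenoprotein that binds UGGT enzymes, had a log2 ratio of 0.58 and was not called. CALR3, a testis relative of CALR, lay under the limit of 3 counts in both libraries.

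ER mannosidases and degradation lectins, which mark and read glycoproteins for disposal, gave 3 higher (all genes 7.22%) and 3 neither of 6 tested, with a median of 1.06 (0.73 with library totals). EDEM1, a mannosidase-like protein that takes misfolded glycoproteins out of the cycle, had 115 CPM with CB-5083 against 37.2 CPM with DMSO (3.08-fold, 2.89 to 3.29). The lectin OS9 was 2.26-fold higher (2.11 to 2.42), and its relative ERLEC1 2.19-fold (2.08 to 2.31). Scaled by library totals, OS9 (log2 ratio 0.82) and ERLEC1 (0.78) were not called, and EDEM1 was the 1 gene of the list that was.

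Oligosaccharyltransferase, the complex that attaches the glycan, gave 3 higher (all genes 7.22%) and 8 neither of 11 tested. The median of 0.67 was 0.33 with library totals, which left 1 of the list higher. MAGT1, an oxidoreductase subunit, had 462 CPM with CB-5083 against 105 CPM with DMSO (4.38-fold, 4.22 to 4.55). OSTC and the catalytic subunit STT3A belong to the form of the complex that works at the translocon. OSTC was 2.20-fold higher (2.13 to 2.27) and STT3A 2.14-fold (2.08 to 2.21), and by library totals neither was called (log2 ratios 0.79 and 0.76). RPN1, the subunit with the highest CPM summed over both libraries, had 450.3 CPM with CB-5083 against 231 CPM with DMSO, a log2 ratio of 0.96 and no call.

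Assembly of the dolichol-linked glycan, with the supply of its sugars, gave 5 higher (all genes 7.22%) and 23 neither of 28 tested, with a median of 0.25. With library totals the median turned to -0.08, 3 genes were higher, and 2 were lower, ALG1 (log2 ratio -1.12) and ALG10B (-1.01), whose reads may be shared with its close copy ALG10. The 3 members with the highest ratios all make UDP-N-acetylglucosamine. UAP1 had 737 CPM with CB-5083 against 105 CPM with DMSO (7.01-fold, 6.76 to 7.26). GFPT1, the first enzyme of that route, had 655 CPM with CB-5083 against 134 CPM with DMSO (4.88-fold, 4.73 to 5.05), and PGM3 had 241 CPM with CB-5083 against 94.3 CPM with DMSO (2.56-fold, 2.45 to 2.67). GMPPA, a regulator of GDP-mannose synthesis (2.198-fold, 1.95 to 2.49), and ALG5, which charges dolichol with glucose (2.05-fold, 1.93 to 2.18), were the other genes called. Neither was called with library totals, at 0.75 for GMPPA and 0.69 for ALG5, and ALG5 stood at 0.95 in the authors' deposited table.

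Export lectins and early Golgi trimming enzymes gave 1 lower (all genes 4.91%), none higher and 10 neither of 11 tested, with a median of -0.33 (-0.67 with library totals). MAN1A1, a Golgi mannosidase, was not called at a log2 ratio of -0.94. Scaled by library totals it was lower at -1.27, and the authors' deposited table gave -1.05. MANEA, the Golgi endomannosidase that offers a way round the glucosidases, had 18.1 CPM with CB-5083 against 40.6 CPM with DMSO, a log2 ratio of -1.13 (0.445-fold, 0.401 to 0.493). LMAN1, the cargo lectin ERGIC-53 and the most expressed of this list, had 449 CPM with CB-5083 against 227 CPM with DMSO, a log2 ratio of 0.98 just short of the threshold. In cytosolic deglycosylation, none of 4 tested genes was called, with a median of 0.07 (-0.26 with library totals). RAD23B, a ubiquitin receptor that binds the glycanase NGLY1, had 1298 CPM with CB-5083 against 747 CPM with DMSO, a log2 ratio of 0.80.

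**Figure D5:**
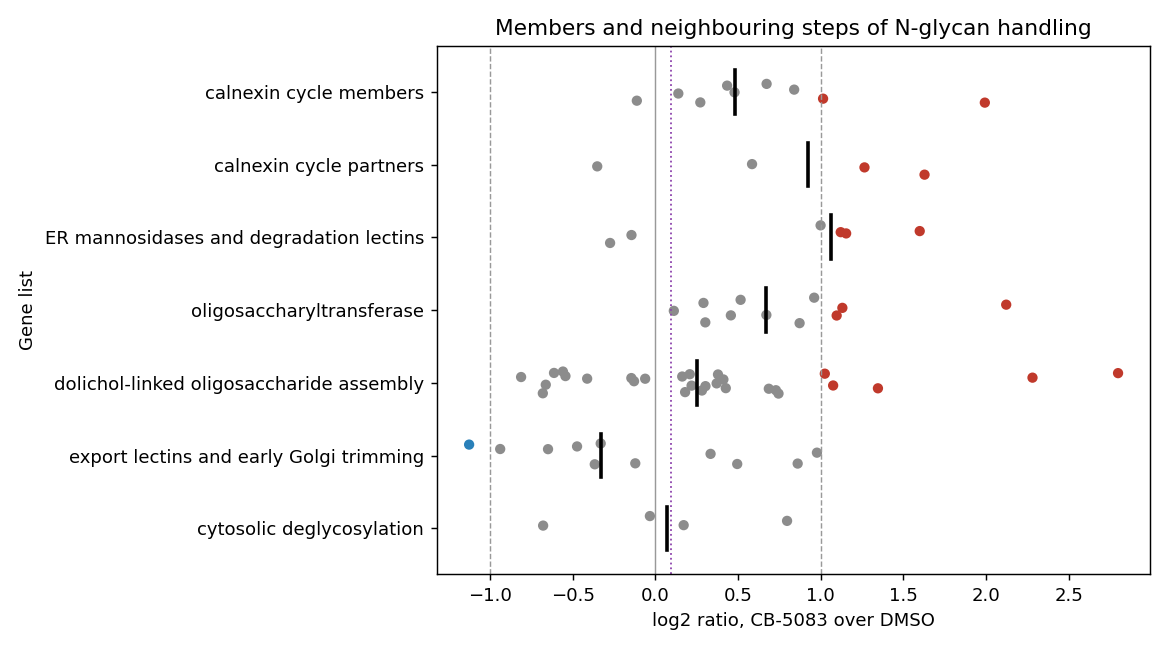
Log2 ratio of CB-5083 over DMSO for the 9 members (top) and the tested genes of the 6 lists, with red for genes called higher, blue for lower and grey for neither. Black bars are medians, dashed lines mark 2-fold, and the dotted line is the median of all tested genes (0.09). The medians run from 1.06 for ER mannosidases and degradation lectins to -0.33 for export lectins and early Golgi trimming.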

How the data were processed

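The authors deposited a signal per gene, named counts in the files but scaled within each library: its 75th percentile lay at 999.9 with CB-5083 and 999.7 with DMSO. Per the submitters' processing notes, RSEM 1.2.0 and hg19 were used, and per the labels' protocols the libraries were stranded. The sources used here name no aligner and do not say whether counting used strand. Signals were divided by the commonest low step (1.175 with CB-5083, 1.079 with DMSO), which gave whole numbers within 0.02 for 55.97% and 55.2% of values above 0. These estimated counts are not whole reads. The design had assumed unscaled estimated counts. 1 row of 21116 held no value and was left out.

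CPM used TMM factors of 0.888 (CB-5083) and 1.126 (DMSO), with trims of 30% and 5%. Fold intervals are exact (Clopper-Pearson, 95%) on counts rounded to whole numbers. PCR copies are not independent molecules, and intervals and floors cover counting error only. A count of 0 allows 3 counts, 0.106 CPM with CB-5083 and 0.0910 CPM with DMSO. The authors' deposited log2 ratio, another column, equals log2 of the CB-5083 signal over the DMSO signal without pseudocount, and held a number for 16034 genes.

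File starts count from 0, as gene lengths matched RefSeq on that reading for 683 of 5771 single-interval genes and on the other for 110, so 1 was added. No other listed gene overlapped a member in hg19. Transcript lengths came from GENCODE 29 and promoters from RefSeq (GRCh38.p14), with no coordinates carried between builds. Of the 73 list genes 1 (SELENOF) was matched by accession and 1 by synonym.

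The members, lists and rule were chosen with earlier results of these data known. The rule named all members, PDIA3, up to 4 called genes per list by size and the most expressed gene of each. SELENOF, CALR3, ALG1, ALG5, ALG10B, EDEM2, MAN1A1, KRT8, KRT18, CDH1, CLDN4, CDX2, CD68, HSPA5, CRELD2, EIF2A, TRIM5, ZNF17 and the chromosomal neighbours were named, and the promoter search was added, after values were seen. Scripts were tested on simulated data. Alternatives covered scaling, pseudocount, filter, threshold, ratio source and transcript length. Computations ran in Python 3.11.15 with scipy 1.17.1, pandas 2.3.3, numpy 2.4.6 and, for plots, matplotlib 3.10.9.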

Additional observations from a re-analysis of the deposited data

How the results depend on the processing

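The calls depend on scaling and threshold, and each treatment is a single library. Library totals left 1 member higher (CALR) instead of 2, with a member median of 0.14 in place of 0.48, and gave 371 higher and 994 lower genes over all, and 6 higher and 4 lower genes over the 6 lists in place of 13 and 1. On that scale the log2 ratio of UGGT2 was -0.063 and that of MOGS -0.18, the 2 of 54 member values that changed sign. Upper quartile scaling left 1 member higher, with a median of 0.38, and 2 list genes lower. The authors' deposited ratio left 1 member higher, with a median of 0.39, 722 genes lower over all and 2 list genes lower. A threshold of 1.5-fold gave 4 higher members, 1660 higher and 1195 lower genes, and 23 higher and 8 lower list genes. One of 4-fold gave 0 members, CALR standing at 3.99-fold, with 115 higher and 34 lower genes, and 3 higher and 0 lower list genes. Fewer or more calls at another threshold follow from its construction, and the shifts with scaling from the scale factor applied to all genes. With median transcript lengths MLEC ranked 3 with CB-5083 and 2 with DMSO, GANAB 4 with CB-5083, CALR 4 with DMSO, UGGT2 6 with DMSO and PRKCSH 7 with DMSO. Median-of-ratios scaling, other pseudocounts and filters of 1 CPM, 10 CPM or none left both member calls in place. CALR was called under each alternative except the 4-fold threshold. Depth limits CLGN most, with 186 and 123 estimated counts. No paired analysis was possible because each treatment is 1 library.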

Other observations

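Some genes next to the members on the chromosome (hg19, by the files' coordinates) had ratios unlike the members', and others came nearer to them. SCOC had a log2 ratio of 0.38 beside 0.67 for CLGN. WBP1, under 5 CPM in both libraries, had 0.07 beside 0.14 for MOGS. Among those unlike their member, 4 are given here. FARSA, 4855 bases from CALR and encoding a subunit of phenylalanyl-tRNA synthetase, had a log2 ratio of -0.10. MAML1, a coactivator of Notch signalling 1211 bases beyond CANX, had 39.3 CPM with CB-5083 and 40.9 CPM with DMSO, a log2 ratio of -0.06. DNAJC3, which encodes an ER cochaperone of HSPA5 and lies 6592 bases from UGGT2, had 687 CPM with CB-5083 and 114 CPM with DMSO, a log2 ratio of 2.58, beside 0.27 for UGGT2. HS6ST1, a heparan sulfate sulfotransferase 69804 bases from UGGT1, had 3.34 CPM with CB-5083 and 9.80 CPM with DMSO. Its log2 ratio was -1.31, beside 0.84 for UGGT1, and it reached 5 CPM in the DMSO library only.

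EDEM2, a starter of mannose trimming for disposal, had 20.5 CPM with CB-5083 and 9.74 CPM with DMSO. Its fold was 2.10, but the pseudocount brought its log2 ratio just under the threshold of 1.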
